A study of Mus musculus with 2 samples.

Results

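Nos2, Arg1, Arg2, Acod1, Slc7a2 and Ass1 are 6 of the 32285 genes counted in single cells of the inflamed temporomandibular joint (TMJ), and they were picked by symbol as the genes through which myeloid cells take up, use and regenerate arginine or make itaconate. Their levels were followed in neutrophils, granulocyte-monocyte progenitors, monocytes and macrophage subsets. These held 1061 of the 4352 cells kept from the WT library and 1212 of the 5757 kept from the mutant library. Droplet single-cell RNA-seq tags each captured transcript with a unique molecular identifier (UMI), so a level here is a count of UMIs, given per 1000000 UMIs of the cells named (CPM). All mice were C57BL/6, 8 to 10 weeks old per the labels and female per the study's results section, and all received complete Freund's adjuvant (CFA), a mycobacterial emulsion, in the joint. The groups differed in genotype: WT, or Prox1 mutant, which the study's methods give as Prox1+/-, heterozygous for a transcription factor that lymphatic endothelium needs. There was 1 library per genotype, no sham-injected library was analysed here, and how many mice each library pooled is not given in the sources used here, so no test between genotypes was possible and every interval below covers counting error only.

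Macrophages handle arginine in opposing ways. The inducible nitric oxide synthase, encoded by Nos2, oxidises arginine to nitric oxide and citrulline, while the arginases split it into urea and ornithine, Arg1 in the cytosol and Arg2 in mitochondria. Slc7a2 encodes CAT2, a carrier that brings arginine into the cell, and Ass1 encodes argininosuccinate synthase, which begins the return of citrulline to arginine. Acod1 (also Irg1) encodes the mitochondrial enzyme that makes itaconate from cis-aconitate, and is known as a gene that neutrophils and macrophages switch on after microbial signals. Nos2 and Acod1 are usually tied to interferon-gamma and Toll-like receptor signals, and Arg1 to interleukin-4, interleukin-13 and hypoxia.

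In GRCm38 (GENCODE M21) the genes lie apart from each other: Nos2 (ENSMUSG00000020826) on chromosome 11 from 78920787 to 78960254, Arg1 (ENSMUSG00000019987) on chromosome 10 from 24915221 to 24927484, Arg2 (ENSMUSG00000021125) on chromosome 12 from 79130777 to 79156301, Acod1 (ENSMUSG00000022126) on chromosome 14 from 103046977 to 103056573, Slc7a2 (ENSMUSG00000031596) on chromosome 8 from 40862396 to 40922308 and Ass1 (ENSMUSG00000076441) on chromosome 2 from 31470207 to 31520672. All are on the plus strand except Arg1. Arg2 overlaps Vti1b and Gm48780 on the opposite strand, and Slc7a2 overlaps Gm26584 there.

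RefSeq promoters were at hand for 2 of the 6 genes, Acod1 and Ass1, the least alike of the 15 pairs in their levels across the myeloid subclusters. The stretches below run, on the plus strand of GRCm38.p6, from 250 bases before the RefSeq start to the annotated GENCODE start, and the capitals mark a match to the letters of an NF-kappa-B-type element, GGNNNTTCC.
Acod1, chr14:103046762-103046976: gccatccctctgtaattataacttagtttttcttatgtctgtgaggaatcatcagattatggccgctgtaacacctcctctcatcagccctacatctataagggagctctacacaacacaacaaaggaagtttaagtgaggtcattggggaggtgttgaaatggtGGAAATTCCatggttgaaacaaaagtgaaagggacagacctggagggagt
Ass1, chr2:31470020-31470206: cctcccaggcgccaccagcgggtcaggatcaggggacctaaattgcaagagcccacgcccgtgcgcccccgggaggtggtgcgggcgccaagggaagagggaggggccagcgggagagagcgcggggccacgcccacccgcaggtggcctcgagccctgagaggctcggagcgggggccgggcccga
Over the whole 250 bases, Acod1 had a GC content of 44.4% and Ass1 of 75.6%, against a median of 52.4% over 32851 promoters. The match in Acod1 began 85 bases before the RefSeq start, matched the pattern on both strands, and 15.7% of all promoters held such a match. In the part not printed, Acod1 had TATAAA 28 bases before that start (12.4% of promoters held it), and Ass1 had GGGCGG 63 bases before (32.7%) and CACGTG 36 bases before (6.02%). Neither promoter matched TTCNNNGAA (7.02%) or the letters of an interferon-response element (2.98%) on either strand. The motifs, searched on both strands, were chosen with earlier results of these data known, and a match is a description of letters and not of binding.

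The WT library held 53517206 UMIs in 5709 barcodes and the mutant library 62446987 in 7846. Cells were kept from 500 genes upward and below a mitochondrial share of 10%, with a median of 6997 UMIs in WT and 4848 in the mutant, and 4 barcodes were kept in both libraries. Prox1 stood at 11.6 CPM in kept WT cells and 5.8 CPM in kept mutant cells, and at 8.51 and 5.17 CPM without the single droplet richest in it in each library, which held 152 of the 563 WT UMIs. Malat1, a nuclear RNA, was higher in the mutant library in 13 of the 14 myeloid subclusters, at 17432 and 26691 CPM in interferon-responding macrophages for example, and its part in the ratios below was not tested.

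Cells were clustered with the 6 genes left out of the features, so their levels did not place any cell, and the 2871 cells of the myeloid clusters were clustered again into 14 subclusters. Subclusters were named from marker genes, none of them among the 6, as mature neutrophil-like, immature neutrophil-like and so on, written below without the suffix. Mature neutrophils (180 WT and 166 mutant cells) carried Cxcr2, immature neutrophils (145 and 190) Camp and Ltf, progenitors (94 and 100) Elane and Mpo, and monocytes (72 and 95) Ccr2 and Vcan. Resident-type macrophages (69 and 84) carried Folr2 and Lyve1, and interferon-responding macrophages (206 and 292) were led by Cxcl9. The inflammatory macrophages (295 and 285) joined 2 subclusters. The deep one, led by Mmp12 and Spp1 (233 and 176 cells), was raised in these and in Inhba and Il1a. The shallower one, led by Adam19 and Stk38l (62 and 109 cells), was raised in Slc7a11, Cd38 and Vegfa but not in Mmp12 or Spp1. None of these 3 raised markers led it. A further 2 subclusters of the myeloid clusters, with 49 WT and 503 mutant cells, carried haemoglobin or smooth muscle genes beside myeloid ones and enter no value below unless named.

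Each of the 6 genes had its own place in the myeloid compartment. Nos2, Arg1, Slc7a2 and Ass1 were concentrated in the inflammatory and interferon-responding macrophages, whereas Acod1 and Arg2 had their highest CPM in mature neutrophils. The inflammatory macrophages alone held 62.7% of the WT library's Nos2 UMIs, 62.5% of its Arg1, 71.7% of its Slc7a2 and 70.4% of its Ass1, and 49.3%, 62.8%, 67.8% and 54.8% of those in the mutant library. They made up 6.78% of kept WT cells and 4.95% of kept mutant cells. These cells were deep, with medians of 27218 and 18031 UMIs against 6997 and 4848 over all kept cells. Their share of all UMIs was therefore larger than their share of cells, and the 2 kinds of share do not measure a concentration. The same macrophages also held 40% of Arg2 UMIs in WT and 24.9% in the mutant, against 12.4% and 20.9% in mature neutrophils. For Acod1 these shares were 28.3% and 22.5%, against 31.7% and 28% in mature neutrophils.

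**Figure D1:**
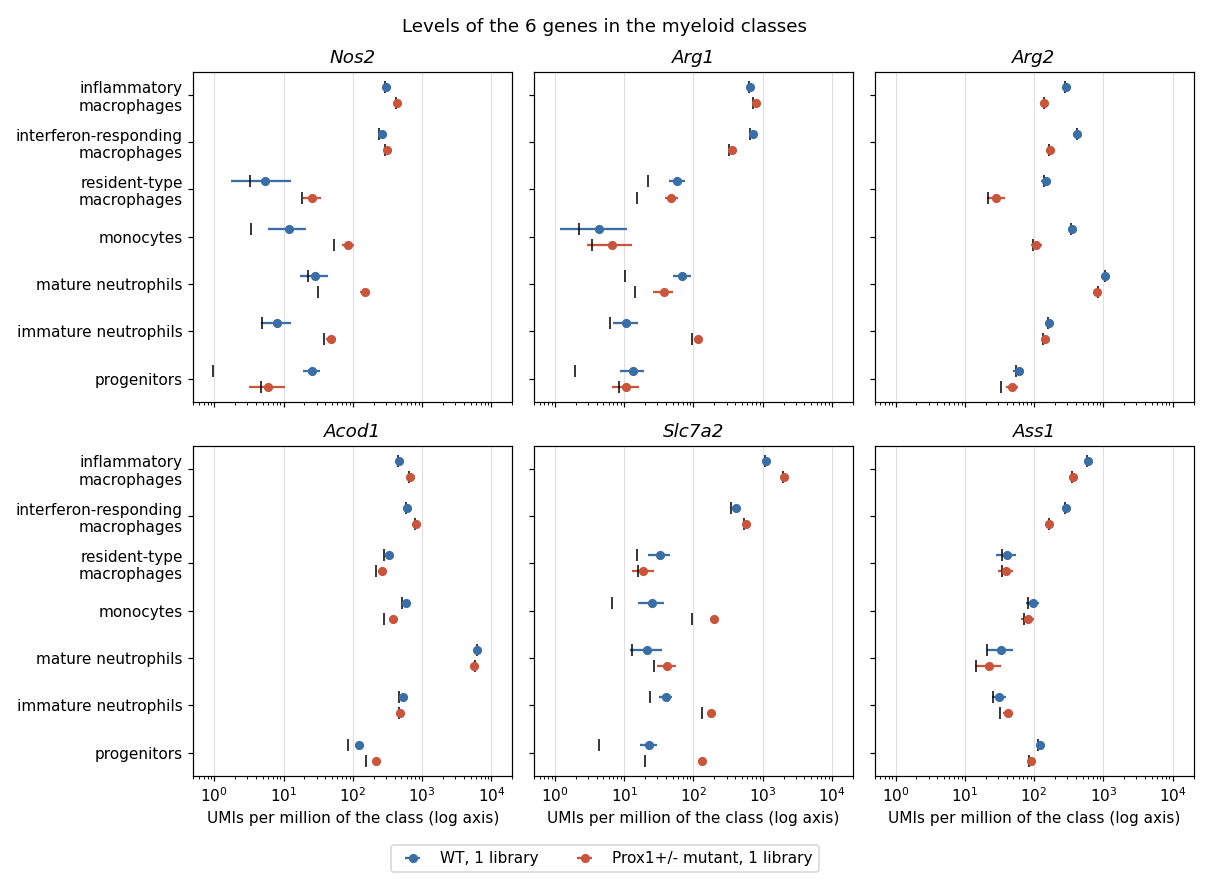
Level of each gene (CPM of the class, log axis) in the 7 myeloid classes of the WT library (blue) and the Prox1+/- library (red), 1 library each; points are values of summed cells, horizontal bars their exact 95% Poisson intervals and black ticks the level without the droplet richest in the gene. Acod1 reached 6206 CPM in WT mature neutrophils, and a black tick far to the left of its point, as for Nos2 in mutant mature neutrophils, marks a level that rested on 1 droplet.

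WT inflammatory macrophages held 300 CPM of Nos2 (95% interval 289 to 312) and mutant ones 433 CPM (417 to 449). Interferon-responding macrophages held 263 CPM (246 to 280) in the WT library, against 310 CPM (294 to 327) in the mutant library. These classes were well above the others in both libraries, and the intervals of the pair did not overlap. Outside them the WT levels ran from 5.41 CPM in resident-type macrophages to 28.5 CPM in mature neutrophils, with overlapping intervals between every neighbour in the order. Mutant levels outside them ran from 6.05 CPM in progenitors to 150 CPM in mature neutrophils. Of the 150 UMIs in those mutant neutrophils, 120 came from 1 droplet, and 31.1 CPM remained without it.

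Nos2 was spread unevenly over the inflammatory macrophages. After every cell was thinned at random to 5000 UMIs, which leaves out shallower cells, 35.0% of WT and 44.9% of mutant inflammatory macrophages had a Nos2 UMI. The median cell held 0 in both libraries, and the highest held 26 in WT and 27 in the mutant. Without thinning the shares were 45.4% and 54.4%, at median depths of 27218 and 18031 UMIs. Erythroid cells, which should lack the gene, gave 0.35% in WT and 3.86% in the mutant at 5000 UMIs, and B cells 2% and 6.67%, at median depths of 9169.5 and 4608 UMIs for erythroid cells and 4013 and 4928.5 for B cells. Unthinned, 0.943% and 6.88% of erythroid cells had a Nos2 UMI. The erythroid class also differed in make-up between the libraries. A cluster led by Igkc, Hba-a2 and Jchain gave 11 of its 318 WT cells and 643 of its 1294 mutant cells, the latter at a median of 2473 UMIs. At the thinned depth 5.63% of mutant mature neutrophils (4 of 71) had a Nos2 UMI, between mutant erythroid and B cells, and the WT share of 3.45% was 1 of 29 cells.

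Arg1 shared the macrophage classes of Nos2, but its summed levels were ordered differently between the libraries. In WT it was 728 CPM (700 to 757) in interferon-responding and 659 CPM (642 to 676) in inflammatory macrophages. In the mutant the order was turned, with 364 CPM (347 to 382) in interferon-responding and 794 CPM (773 to 816) in inflammatory macrophages. This turn was not seen at equal depth. With every cell thinned to 5000 UMIs, the mean WT count was 3.56 in interferon-responding and 3.74 in inflammatory macrophages. The mutant means were 1.76 and 3.72. The 2 inflammatory subclusters also differed: the Mmp12-led one held 691 CPM in WT and 842 in the mutant, and the Adam19-led one 138 and 381 CPM. Monocytes were lowest in both libraries, at 4.34 CPM from 4 UMIs and 6.64 CPM from 8 UMIs. Thinned, 41.1% of WT and 45.3% of mutant inflammatory macrophages had an Arg1 UMI, the median cell held 0 and the highest held 44 and 49.

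Slc7a2 marked the inflammatory macrophages most sharply. The WT level of 1101 CPM (1079 to 1123) and the mutant level of 2023 CPM (1990 to 2057) compare with 411 and 578 CPM in interferon-responding macrophages. Every other WT class lay between 21.4 and 39.9 CPM, and neighbours in that order overlapped. Among inflammatory macrophages 83.7% of WT and 81.8% of mutant cells had a Slc7a2 UMI at 5000 UMIs per cell, so the carrier was close to general in this class where Nos2 and Arg1 were not. The median thinned cell held 4 Slc7a2 UMIs in WT and 7 in the mutant.

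Ass1, the recycling enzyme, followed the same classes with a higher floor. It was 595 CPM (578 to 611) and 359 CPM (345 to 373) in WT and mutant inflammatory macrophages, and 289 and 165 CPM in interferon-responding ones. Progenitors came next, at 120 CPM (106 to 136) and 90.8 CPM (78 to 105), with 38.6% and 34.3% of thinned cells holding a UMI, and their intervals overlapped those of monocytes in both libraries. Immature neutrophils, mature neutrophils and resident-type macrophages lay between 22 and 42.5 CPM.

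By level, Acod1 was a neutrophil gene first. WT mature neutrophils held 6206 CPM (6023 to 6393) and mutant ones 5653 CPM (5506 to 5802), and 97.2% and 95.8% of them had a UMI before thinning although their median depth was 2882 and 4615 UMIs. No other of the myeloid classes followed here exceeded 601 CPM in WT or 827 CPM in the mutant, both in interferon-responding macrophages. Mast cells and basophils, which were not among these classes, stood above those values and are given at the end. The mature neutrophil subcluster led by Csf1 and Il1f9 stood at 8574 and 7762 CPM, and the one led by Stfa2l1 and Retnlg at 3252 and 3819 CPM. Immature neutrophils lay far lower at 524 and 481 CPM, and progenitors lowest at 121 and 214 CPM. At 5000 UMIs 72.6% and 76.0% of inflammatory and 68.8% and 81.1% of interferon-responding macrophages had an Acod1 UMI, against 5.94% and 12.2% of erythroid cells.

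Arg2 ran with Acod1 in neutrophils and lay apart from Arg1. WT mature neutrophils held 1073 CPM (998 to 1153) and mutant ones 809 CPM (754 to 867), the highest level of Arg2 among the myeloid classes in both libraries. WT interferon-responding macrophages followed at 423 CPM (401 to 445), then monocytes at 358 CPM (321 to 399) and inflammatory macrophages at 287 CPM (276 to 298). In the mutant these 3 classes held 169, 108 and 140 CPM. WT monocytes were rich in Arg2 and all but empty of Arg1, as 73.1% of thinned cells had an Arg2 UMI and 1.49% an Arg1 UMI.

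The libraries were then compared class by class over all genes with at least 50 UMIs. A gene was called where its CPM differed at least 2-fold and the exact binomial interval of the ratio left out no change. Arg2 was the member that differed most steadily, lower in the mutant library in all 7 classes and called in each of the 4 monocyte and macrophage classes. In inflammatory macrophages its log2 ratio of mutant over WT was -1.03 (95% interval -1.14 to -0.92), in interferon-responding macrophages -1.32 (-1.45 to -1.20), in monocytes -1.73 (-2.04 to -1.43) and in resident-type macrophages -2.40 (-2.89 to -1.92). It was -0.41 (-0.55 to -0.26) in mature neutrophils, -0.21 (-0.41 to -0.01) in immature neutrophils and -0.30 (-0.70 to 0.09) in progenitors, where the interval held no change. Leaving out the droplet richest in Arg2 in each library moved the macrophage and monocyte ratios to between -2.67 and -1.03. The share of thinned monocytes with an Arg2 UMI was 73.1% in WT and 27.4% in the mutant, and that of interferon-responding macrophages 79.6% and 44.1%.

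In inflammatory macrophages 1 of the 6 members was called, Arg2, beside 6.89% of the 9805 genes tested. The median gene there had a log2 ratio of 0.21, so each ratio is also given relative to it. Slc7a2 was higher in the mutant by 0.88 (0.84 to 0.92), or 0.67 relative to the median gene, and by 1.01 in cells of 1000 genes or more with a mitochondrial share below 5%. Nos2 and Acod1 were both higher by 0.53, or 0.31 and 0.32 relative to it. Arg1 was higher by 0.27 (0.22 to 0.32), which is 0.06 relative to the median gene, and at -0.24 over all monocytes and macrophages combined. Ass1 was lower, at -0.73 (-0.80 to -0.66), or -0.94 relative to the median gene. None of these 5 reached 2-fold by summed UMIs over the class. With every cell thinned to 5000 UMIs, which leaves out shallower cells, mean Slc7a2 counts were 5.46 in WT and 11.01 in the mutant, past 2-fold. Mean Arg2 counts were 1.57 and 0.82, inside 2-fold. Those of Nos2 were 1.71 and 2.73, of Acod1 2.32 and 3.16, and of Ass1 2.76 and 1.67. The call of Arg2 and not Slc7a2 therefore depended on the measure.

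In interferon-responding macrophages 1 of 6 members was called, again Arg2, beside 4.5% of 8769 genes. Arg1 was lower in the mutant at a log2 ratio of -1.0 (-1.09 to -0.91), just inside the 2-fold limit, and Ass1 lower at -0.81 (-0.95 to -0.67). Acod1 was higher by 0.46 (0.38 to 0.54), Slc7a2 by 0.49 (0.40 to 0.59) and Nos2 by 0.24 (0.12 to 0.36), against a median gene of 0.13. By summed UMIs Arg1 had ratios of opposite sign in the interferon-responding and the inflammatory macrophages. With every cell at 5000 UMIs, its mean count was 3.74 in WT and 3.72 in mutant inflammatory macrophages, so the higher mutant level was not seen there. In interferon-responding ones it was 3.56 and 1.76. The difference between classes cannot be tested with 1 library per genotype.

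In monocytes 3 of 5 members with enough UMIs were called, beside 10.9% of 5599 genes. Arg2 was lower, while Nos2 was higher in the mutant by 2.85 (1.95 to 3.90) and Slc7a2 by 2.97 (2.35 to 3.66). The higher pair rested on few cells: 11.9 and 86.3 CPM of Nos2 came from 3 WT and 9 mutant cells, without the richest droplet of each library the levels were 3.34 and 54.2 CPM, and 15.8% of mutant monocytes had a Slc7a2 UMI against 22.3% of mutant erythroid cells. At 5000 UMIs the share of mutant monocytes with a Slc7a2 UMI was 9.59% and that of mutant erythroid cells 10.6%. These shares compare detection and not level: mutant monocytes held 196 CPM of Slc7a2, and the highest thinned cell held 18 UMIs. Nos2 was in 11% of mutant monocytes there (8 of 73, 95% interval 4.85% to 20.5%), against 3.86% of mutant erythroid cells and 6.67% of mutant B cells, and the interval held the B cell value.

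In resident-type macrophages 2 of 6 members were called, beside 4.09% of 6328 genes: Arg2, lower, and Nos2, higher by 2.25 (0.92 to 3.94) from 5 WT and 45 mutant UMIs. At 5000 UMIs Nos2 was in 5.95% of mutant resident-type cells (5 of 84), a share between those of mutant erythroid and B cells. Cxcl9, an interferon-induced chemokine, was 58.5 CPM in WT resident-type cells and 374 CPM in mutant ones, and its part in the Nos2 ratio was not tested. Its higher mutant level was not particular to this class. In every other myeloid class described it was higher in the mutant too, at 86.3 and 230 CPM in inflammatory macrophages and 193 and 206 CPM in mature neutrophils for example. In immature neutrophils 3 of 6 were called, beside 5.1% of 7356 genes. These were Nos2 at 2.61 (1.90 to 3.40), Arg1 at 3.47 (2.88 to 4.13) and Slc7a2 at 2.17 (1.85 to 2.50), all higher in the mutant. The macrophage markers Mmp12 and Cxcl9 moved with them in this class, Mmp12 from 20.8 CPM (WT) to 124 CPM (mutant) and Cxcl9 from 24.4 CPM to 90.3 CPM. Folr2, the marker of resident-type macrophages, did not, at 2.66 and 2.65 CPM. All 19 mutant immature neutrophils with the highest doublet scores held at least 2 members, and the part of these cells and markers in the ratios was not tested. The immature neutrophils with a UMI were again few, 7.57%, 7.57% and 9.73% of thinned mutant cells for Nos2, Arg1 and Slc7a2, beside 3.86%, 5.63% and 10.6% of mutant erythroid cells. Acod1 and Arg2, the genes that WT immature neutrophils held at the highest levels, had ratios of -0.12 and -0.21. In mutant ones Slc7a2 stood at 179 CPM, above Arg2 at 143 CPM.

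In mature neutrophils 1 of 5 members was called, beside 10.9% of 3878 genes, and in progenitors 2 of 5, beside 5.07% of 8099 genes. In each of these calls most UMIs of 1 library lay in a single droplet. Nos2 in mature neutrophils had a ratio of 2.39 (1.72 to 3.15) and of 0.44 without the richest droplets. Nos2 in progenitors was lower in the mutant at -2.07 (-3.11 to -1.15), but 52 of the 54 WT UMIs were in 1 droplet. Without the richest droplets the ratio was 2.28, but the WT UMIs left were below the floor of 3, so its sign was not read. Slc7a2 in progenitors was higher by 2.55 (2.11 to 3.03), with 224 of 263 mutant UMIs in 1 droplet, and by 2.22 without the richest ones. Acod1 in mature neutrophils, with 4349 WT and 5654 mutant UMIs, had a ratio of -0.13 (-0.19 to -0.08).

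**Figure D2:**
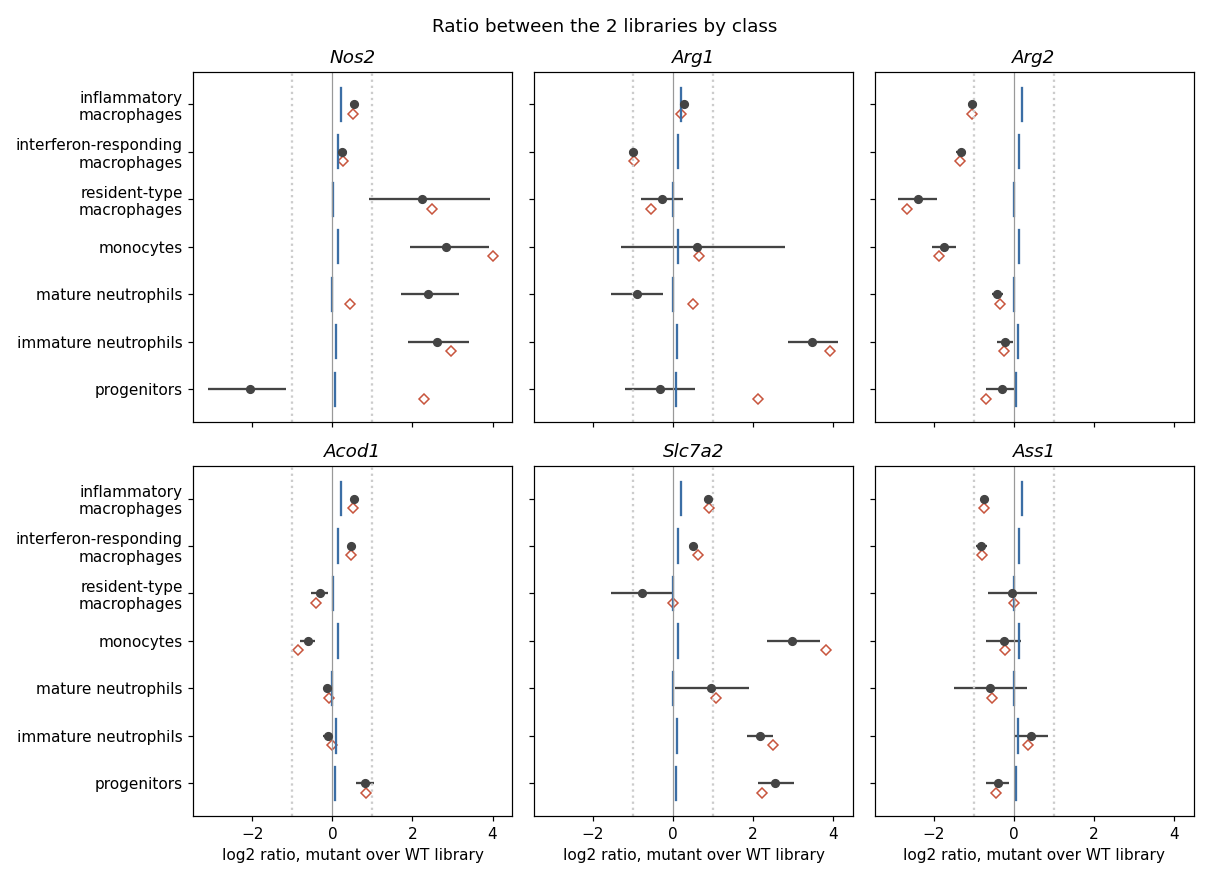
Log2 ratio of the mutant over the WT library for each gene by myeloid class; black points are ratios of summed UMIs with exact binomial 95% intervals, open red diamonds the ratios without the droplet richest in the gene in each library, blue ticks the median over all genes tested in the class and dotted lines 2-fold. Arg2 lies left of 0 in all 7 classes. Nos2 in progenitors moves from -2.07 to 2.28 when single droplets are left out, which leaves WT UMIs below the floor of 3.

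At 5000 UMIs per cell, cells that held UMIs of at least 2 of the 6 genes were the rule in inflammatory and interferon-responding macrophages and in mature neutrophils, and a minority in the other myeloid classes. At that depth 255 of 263 WT inflammatory macrophages (97.0%, 95% interval 94.1% to 98.7%) and 210 of 225 mutant ones (93.3%, 89.2% to 96.2%) did so. In interferon-responding macrophages the counts were 169 of 186 (90.9%, 85.8% to 94.6%) and 180 of 222 (81.1%, 75.3% to 86.0%). All 6 genes at once were found in 30 WT and 14 mutant inflammatory macrophages and in 5 and 4 interferon-responding ones. WT monocytes were at 46.3% (34% to 58.9%), mutant ones at 27.4% (17.6% to 39.1%), and resident-type macrophages at 30.3% and 19.0%. As a background for these shares, erythroid cells gave 2.80% and 8.36% and B cells 4.00% and 10.0%. T cells were few and gave more, 6 of 22 WT cells (27.3%) and 8 of 43 mutant cells (18.6%). Their 95% intervals overlapped those of monocytes and resident-type macrophages of the same library. They also overlapped those of immature neutrophils (25.4% of WT and 34.6% of mutant cells) and of progenitors (14.8% and 10.4%). None of these classes stood clear of T cells. The intervals of inflammatory and interferon-responding macrophages lay above those of T cells in both libraries. Before thinning, 95.3% of WT and 88.8% of mutant inflammatory macrophages and 4.72% and 19.8% of erythroid cells held at least 2 genes. Monocytes depended on the depth, with 61.1% of WT (44 of 72) and 38.9% of mutant cells (37 of 95) before thinning and 69.2% and 41.2% at 10000 UMIs.

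Which genes met in a cell depended on the class. All 29 WT mature neutrophils deep enough for 5000 UMIs held both Arg2 and Acod1, as did 61 of 71 in the mutant (85.9%, 75.6% to 93.0%). These were the deepest cells of the class, and before thinning the pair was in 141 of 180 WT cells (78.3%) and 132 of 166 mutant cells (79.5%). In immature neutrophils the same pair was in 24.6% of WT and 25.4% of mutant cells, and Acod1 was found in 70.2% of the WT cells with Arg2 and 25.3% of those without. In inflammatory macrophages the commonest pair was Slc7a2 with Ass1 in WT (70.7%, 64.8% to 76.2%) and Slc7a2 with Acod1 in the mutant (64.4%, 57.8% to 70.7%). The rarest were Nos2 with Arg1 in WT (19.8%) and Arg1 with Arg2 in the mutant (19.1%).

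**Figure D3:**
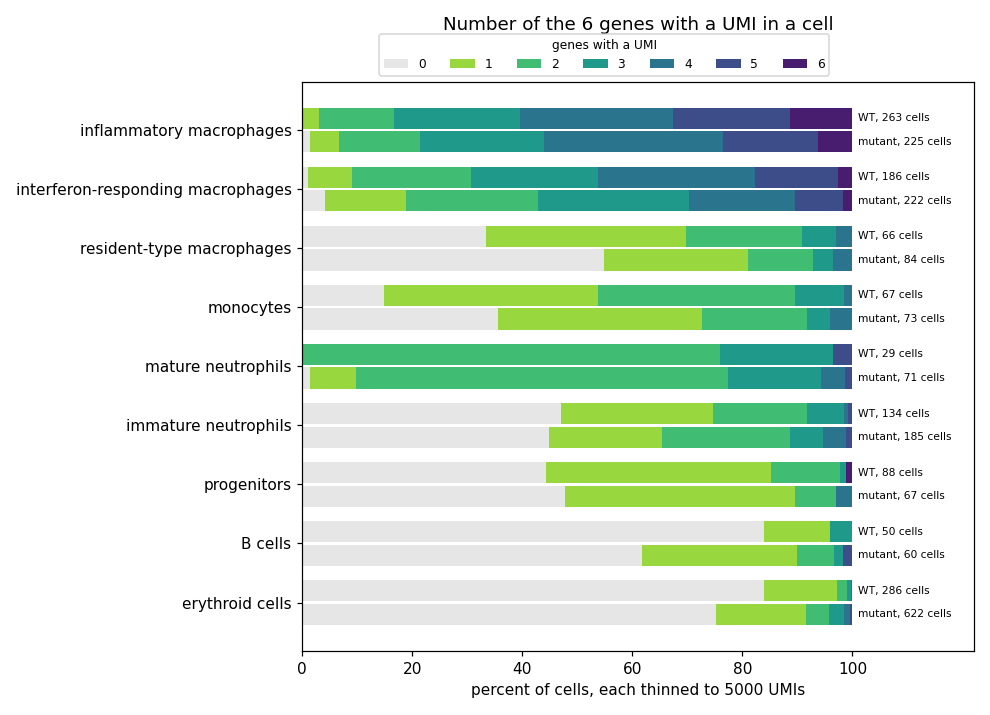
Number of the 6 genes with at least 1 UMI in a cell, as percent of the cells of a class with 5000 UMIs or more, each thinned to 5000; upper bars are the WT and lower bars the mutant library, and cell numbers stand at the right. In inflammatory and interferon-responding macrophages the bars are made mostly of cells with 3 or more genes, and in mature neutrophils mostly of cells with 2.

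Nos2 and Arg1, whose enzymes compete for arginine, were found together in part of the cells. At 5000 UMIs, 52 of 263 WT inflammatory macrophages held both (19.8%, 95% interval 15.1% to 25.1%), 40 held Nos2 alone, 56 held Arg1 alone and 115 neither. In the mutant 50 of 225 held both (22.2%, 17.0% to 28.2%), 51 Nos2 alone, 52 Arg1 alone and 72 neither. An Arg1 UMI was present in 56.5% of WT cells with Nos2 (45.8% to 66.8%) and in 32.7% of WT cells without it (25.8% to 40.3%). In the mutant the shares were 49.5% (39.4% to 59.6%) and 41.9% (33.1% to 51.1%), with overlapping intervals. The thinning depth mattered here: at 10000 UMIs the WT shares were 62.5% and 44.4% and the mutant shares 52.9% and 56.8%, the order of the latter turned. Within the Mmp12-led subcluster alone, at 5000 UMIs, the WT shares were 58.3% and 36.2% and the mutant shares 50% and 42.7%. All intervals here treat cells as independent, although they come from 1 library.

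In interferon-responding macrophages 27 of 186 WT cells (14.5%) and 27 of 222 mutant cells (12.2%) held both genes. Arg1 was in 47.4% of WT cells with Nos2 and 39.5% of those without, and in 39.1% and 26.8% in the mutant, with overlapping intervals in both libraries. Nos2 met Slc7a2 more closely in this class: a Slc7a2 UMI was in 59.6% (45.8% to 72.4%) of WT cells with Nos2 against 30.2% (22.5% to 38.9%) of those without, and in 66.7% (54.3% to 77.6%) against 31.4% (24.1% to 39.4%) in the mutant. Mature neutrophils, monocytes and resident-type macrophages held at most 1 cell with both Nos2 and Arg1 at this depth in either library. Of the inflammatory macrophages that held at least 2 members before thinning, 0 of 281 in WT and 3 of 253 in the mutant were among the barcodes with the highest doublet scores. The same count was 1 of 197 and 19 of 251 for interferon-responding macrophages, 11 of 56 and 19 of 86 for immature neutrophils, and 4 of 40 and 11 of 41 for progenitors. The part of such barcodes in the shares of these classes was not tested.

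**Figure D4:**
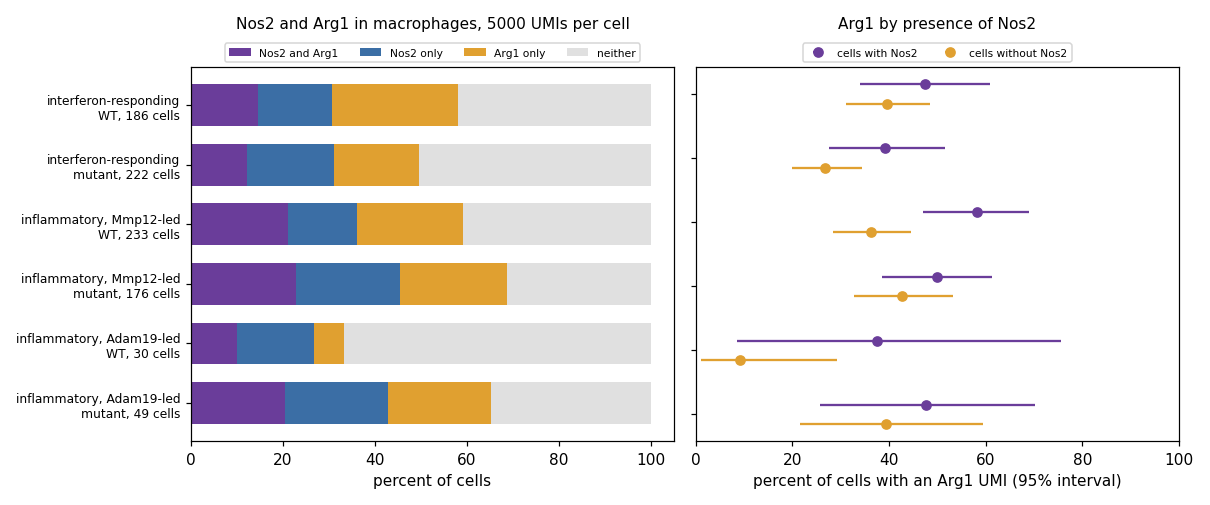
Left, share of macrophages with UMIs of Nos2 and Arg1, of 1 of them or of neither, at 5000 UMIs per cell, by subcluster and library. Right, share of cells with an Arg1 UMI among those with and without Nos2, with Clopper-Pearson 95% intervals; in the WT Mmp12-led subcluster these were 58.3% and 36.2%.

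The rest of the arginine and itaconate pathway was read in inflammatory macrophages from 7 lists with 70 genes. Of the other arginine carriers, 0 of 4 tested was called; Slc3a2, the shared heavy chain of several amino acid carriers, stood at 348 and 326 CPM and Slc7a1 at 16.6 and 26.4 CPM. Of the citrulline recycling list, which also held genes of creatine synthesis, 0 of 3 was called, and Asl was the only recycling enzyme among them. Asl, which completes the step that Ass1 begins, was 21.6 and 21.4 CPM. Gatm, which uses arginine to make a creatine precursor, was 35.9 and 68.1 CPM. Among nitric oxide synthases and their cofactor genes 1 of 5 was called: Ddah1, which clears methylated arginine inhibitors, was lower at -1.03 (-1.73 to -0.36) from 68 WT and 27 mutant UMIs. Gch1, which starts synthesis of the cofactor tetrahydrobiopterin, stood at 166 and 174 CPM and Qdpr, which regenerates that cofactor, at 34.2 and 29.0 CPM.

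Downstream of arginase, 0 of 13 ornithine, polyamine and proline genes was called, with a median log2 ratio of -0.11 beside 0.21 for all genes. Oaz1, the antizyme that restrains ornithine decarboxylase, was 672 and 530 CPM, and Sat1, which acetylates polyamines for export, 310 and 258 CPM. Around itaconate 0 of 14 genes tested was called, with a median of 0.11. That list joined citric acid cycle genes with the carriers Slc25a1, Slc25a10 and Slc25a11 and with Clybl. Sdhb, a subunit of succinate dehydrogenase, stood at 124 and 103 CPM.

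Among sensors and factors that induce Nos2 and Acod1, 0 of 12 was called although the list's median was 0.53. Nfkb1 was 789 and 1065 CPM, Hif1a 673 and 730 CPM. Among those that induce Arg1, 2 of 9 were called, with a median of 0.50. Pparg was higher in the mutant at 1.38 (0.71 to 2.08) and Irf4 at 1.81 (1.04 to 2.65), from 28 and 59 UMIs of Pparg and 19 and 54 of Irf4. Cebpb, the most abundant of this list, was 1277 and 937 CPM and Stat3 283 and 415 CPM. With 3 calls over these lists and 6.89% of all genes past the same fold, the shares of the lists give no result of their own.

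Across the 12 myeloid subclusters with a myeloid name, the 6 genes fell along a few patterns, described by Pearson's r of log2(CPM + 5) with both libraries summed. Arg2 and Acod1 were most alike at r = 0.95, then Nos2 and Slc7a2 at 0.84, Slc7a2 and Ass1 at 0.81 and Arg1 and Slc7a2 at 0.79. Arg1 and Arg2 were at 0.44, and Acod1 with Slc7a2 at 0.16. The 12 points share 2 libraries and differ in depth, so these are descriptions.

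Of 9605 genes compared in this way, those most like Nos2 were Wsb2 at 0.96, Adgb, Sod2 (mitochondrial superoxide dismutase), Jag1 (a Notch ligand) and Gm15832, although Adgb reached only 0.05 in the WT library alone. Cav1 (caveolin, r = 0.91), Igf2bp2, Rhoc, Dubr and Mag were most like Arg1. Arg2 was nearest to Ets2 (0.972), Abtb2, Fbxl5, Mir22hg and Clec4e, the receptor Mincle for mycobacterial cord factor. Acod1 was nearest to Cdc42ep2 (0.971), Ehd1, Il1b, Cd53 and the neutrophil-attracting chemokine Cxcl2. Slc7a2 was nearest to Mmp12 (0.94), Il20rb, Gpc1, Dpys and Inhba, of which Mmp12 and Inhba were among the markers that named the class. Ass1 was nearest to Lrpap1 (0.932), Prdx1 (a peroxiredoxin), Layn, Ccng1 and Chchd10.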

How the data were processed

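Raw UMI counts per gene and barcode, made by the authors with Cell Ranger 7.0.1 on mm10 per the labels, were deposited for 2 libraries, and no further normalization was in them. As in the study, cells entered from 500 genes upward and below a mitochondrial share of 10%, and were clustered in Seurat 5.3.0 (sctransform 0.4.2, R 4.3.3) on 3000 integration features less the 6 genes, 200 components and resolution 1.5, into 45 clusters. The myeloid cells were reclustered on 30 components at resolution 0.5. A subcluster took the name with the highest mean log2 ratio among those with at least 3 markers raised 2-fold in 10% of cells. UMIs were summed per class and library (Python 3.11.15, scipy 1.17.1). Levels carry exact Poisson intervals, shares Clopper-Pearson intervals and ratios exact conditional binomial intervals, all of 95% and for counting error only. Ratios needed 50 UMIs over both libraries. Cells were thinned with a fixed seed. Scrublet (scanpy 1.11.5) called 0 doublets by its automatic threshold, so it had not worked, doublets were kept, and the 239 WT and 462 mutant barcodes with the highest scores were removed as an alternative. The procedure was tested on simulated data. Named genes were the 6 members, the pathway genes past 2-fold and the 2 highest of each list, and the 5 genes most like each member, of which 1 pathway gene is not reported here. The members, lists and motifs were chosen with earlier results of these data known.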

Additional observations from a re-analysis of the deposited data

Results flagged for a closer look

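Nos2 had called ratios of opposite sign in different classes of the same 2 libraries, and the difference between classes was not tested. The log2 ratio of mutant over WT was -2.07 in progenitors, against 2.39 in mature neutrophils, 2.61 in immature neutrophils, 2.85 in monocytes and 2.25 in resident-type macrophages. Without the droplet richest in Nos2 in each library these became 2.28, 0.44, 2.97, 4.02 and 2.50. The first of these rests on WT UMIs below the floor of 3 and was not read as a change of sign.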

How the results depend on the processing

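In inflammatory macrophages, Arg2 and Ass1 were lower and Nos2, Acod1 and Slc7a2 higher in the mutant library under all 11 alternatives run for each. To 2 decimals Arg2 was at 2-fold or past it in all 11. It was smallest at -1.0 (-1.11 to -0.89) with doublets removed, an interval that reached below 2-fold. Mean counts at 5000 UMIs per cell were not among the 11. By that measure Arg2, at 1.57 in WT and 0.82 in the mutant, differed by less than 2-fold. With all monocyte and macrophage clusters combined the log2 ratios were 0.32 for Nos2, -0.24 for Arg1, -1.25 for Arg2, 0.38 for Acod1, 0.57 for Slc7a2 and -0.93 for Ass1, so that Arg1 changed sign, and 13.6% of WT and 12.9% of mutant cells held both Nos2 and Arg1. Relative to the median gene, an alternative chosen after seeing the data, the ratios were 0.31 for Nos2, 0.06 for Arg1, -1.24 for Arg2, 0.32 for Acod1, 0.67 for Slc7a2 and -0.94 for Ass1. Arg1 was also at 0.2 with cells from 200 genes and below 20% mitochondrial UMIs, 0.21 without integration, 0.12 with 30 components, 0.17 at resolution 1.0, 0.15 with the members among the features and 0.2 without the richest droplets. Slc7a2 was at 0.8, 0.93, 0.92, 0.93 and 0.83 under the first 5 of these, and at 1.01, past 2-fold, with cells from 1000 genes and below 5% mitochondrial UMIs. Nos2 was at 0.61 and Ass1 at -0.65 without integration, Arg2 at -1.21 and Ass1 at -0.65 with 30 components, and Acod1 at 0.62 at resolution 1.0. The share with both Nos2 and Arg1 was 13.9% in WT and 14.1% in the mutant at 2000 UMIs per cell, 27.2% and 28.4% at 10000, and 13.7% and 13.3% where 2 UMIs of each gene were required. Leaving out the Adam19-led subcluster, also chosen after seeing the data, moved no value by more than its counting interval. Apart from these constructions the causes were not tested.

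The neutrophil subcluster led by Csf1 and Il1f9 was named interferon-responding macrophage with the looser cell filter and without integration, so the split of Acod1 and Arg2 between neutrophils and macrophages rests on its name. A subcluster with Adam19 among its leading genes was left unnamed with 30 components and with the stricter cell filter. The bounds of the inflammatory class therefore rest on naming too. No paired analysis was possible because each genotype had 1 library. Depth limits low classes: 3 UMIs is the floor below which no level was read.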

Other observations

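Outside the myeloid classes followed above, Slc7a2 was a gene of Schwann cells, the glia of peripheral nerve. The 372 WT Schwann cells held 492 CPM and the 160 mutant ones 371 CPM, and 55.2% and 65.5% of those thinned to 5000 UMIs had a UMI. Acod1 was high in mast cells and basophils, with 1477 CPM over 11 WT cells and 3976 CPM over 17 mutant cells, and 967 and 3261 CPM without the richest droplet. Nos2 was found in mesenchymal cells at 31.0 and 67.7 CPM, and at 24.4 and 40.6 CPM without the richest droplet. The 47 WT T cells held 292 CPM of Arg1, of which 5.79 CPM remained without the richest droplet. B cells of the mutant held 254 CPM of Acod1 against 41.2 in WT, and 107 and 28.8 without it.

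The mixed myeloid subclusters held 120 and 166 CPM of Nos2 and 535 and 229 CPM of Arg1, at median depths of 3119 and 2081 UMIs.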
